A study of Gallus gallus with 54 samples.

Results

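Retinas of form-deprived chicks given an injection of TPMPA were compared here with retinas of form-deprived chicks given an injection of ADTN, 4 h into the treatment. The members are the 4 libraries labelled FDM + TPMPA and the 4 labelled FDM + ADTN at 4 h, chosen by their labels alone. They are 8 of the 54 libraries of the series, which covers 7 conditions at 2 times. All genes with enough counts were tested, 15746 in number.

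Both groups came from male White Leghorn chicks, raised for 6 days under a cycle of 12 h light, and were collected on post-hatch day 7. In both groups a translucent diffuser was used to induce form-deprivation myopia (FDM), and in both a drug was injected into the vitreous. The groups thus share the diffuser and the injection and differ in the drug. The labels used here do not state the doses. FDM retinas at 4 h (diffuser alone, 4 libraries) and untreated retinas at 4 h (4 libraries) are given beside them for level. TPMPA and ADTN retinas at 24 h (4 libraries each, collected on day 8, with a repeat injection 4 h before collection) give a second time. Nothing in the labels says that each library came from a different bird, so p-values measure the spread between libraries. That spread was estimated over all 54 libraries of the series, not over the 8 compared alone.

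A diffuser removes spatial detail from the retinal image, and the young eye then grows too long. TPMPA blocks GABA-C receptors, the chloride channels built from rho subunits that sit mainly on the axon terminals of bipolar cells. ADTN activates dopamine receptors. Dopamine is released by a class of amacrine cells in light and is known to act against the growth of form-deprived eyes. Both kinds of drug are known from work in chicks to reduce form-deprivation myopia, so the comparison asks where the early retinal transcript responses to these drugs differ.

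Counts over the transcripts used totalled 16.2, 19.2, 22.4 and 12.4 M in TPMPA libraries 1 to 4, against 18.2, 13.8, 19.4 and 13.3 M in ADTN libraries 1 to 4. Levels are given as CPM, counts scaled to library size by TMM. For the tissue label, the level of marker lists was read, without another tissue to compare. Summed phototransduction genes lay between 8590 and 10980 CPM in TPMPA libraries, against 8249 and 10117 CPM in ADTN libraries, and summed bipolar cell markers between 1468 and 1635 CPM, against 1453 and 1682 CPM. Summed pigment epithelium and pigment cell genes lay between 1167 and 2387 CPM in TPMPA libraries, against 1566 and 2351 CPM in ADTN libraries. Some libraries stand apart in vessel genes. The vessel score, a mean of log2(CPM + 1) over 9 vessel genes, was 4.44, 2.1, 1.94 and 1.95 in TPMPA libraries 1 to 4, against 4.41, 3.75, 4.39 and 2.84 in ADTN libraries 1 to 4. CDH5, the cadherin of vessel endothelium, had 46.2, 0, 0 and 0 CPM in TPMPA libraries, against 29.8, 19.8, 32.7 and 4.71 CPM in ADTN libraries. TPMPA library 1 is therefore like ADTN libraries 1 to 3 in its vessel genes, and the other TPMPA libraries hold fewer of those transcripts. The level of small structural RNAs (log2 of their summed CPM) was 8.59, 8.13, 7.41 and 6.92 in TPMPA libraries 1 to 4, against 7.74, 7.93, 8.09 and 6.52 in ADTN libraries. In whole tissue, fewer cells of a type and less RNA per cell cannot be told apart.

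Of the 15746 genes, 18 differed between the drugs at an adjusted p under 0.05 (0.114%), 17 of them higher with TPMPA (0.108%) and 1 lower (0.00635%). The median log2 difference over all genes was 0.0027, and 50.8% of the genes had a positive difference. At an unadjusted p under 0.05 there were 1267 genes (8.05%), 761 of them higher (4.83%) and 506 lower (3.21%). The libraries of both groups did not overlap for 355 genes with TPMPA above ADTN (2.25%) and for 186 genes with ADTN above TPMPA (1.18%). Among the 17 higher entries 13 did not overlap between groups and 4 did, namely NR4A3, PRRG3, DUSP4 and FOS. All differences below are log2 of TPMPA over ADTN with their SE unless another pair is named, and all adjusted p-values come from edgeR's quasi-likelihood test. The count of calls depended on the libraries in the fit. It was 56 higher and 34 lower without TPMPA library 1, and 3 higher and 0 lower without ADTN library 3. Of the 18 entries, 3 kept their call whichever single library was left out: UTS2B, VIP and SLC4A5. With the vessel score as a term, 5 genes were higher (UTS2B, VIP, SLC4A5, NUAK1 and ENSGALG00000010288) and 1 lower (RBFA). With the 8 libraries fitted alone, 1 gene was higher, VIP (adjusted p = 0.0196), and 0 lower. In that fit UTS2B (adjusted p = 0.194) and SLC4A5 (adjusted p = 0.0515) missed the threshold.

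The peptide genes UTS2B and VIP were higher with TPMPA than with ADTN by large margins. UTS2B encodes urotensin 2B, a small peptide related to urotensin II (ENSGALG00000007222, galGal5 chromosome 9, 13751029 to 13757813, plus strand). It had 9.15, 15.8, 18.8 and 37.5 CPM in TPMPA retinas, against 2.41, 4.16, 2.72 and 3.50 CPM in ADTN retinas. Every TPMPA library lay above every ADTN library, and the lowest of the TPMPA libraries was library 1. The difference was 2.67 ± 0.34 (adjusted p = 7.67e-06), a 6.37-fold higher level. FDM retinas had 3.73, 4.54, 3.71 and 2.53 CPM and untreated retinas 8.53 ± 1.88 CPM (SD, n = 4). UTS2B was higher with TPMPA than in FDM by 2.49 ± 0.34 (adjusted p = 1.82e-05), and the difference of ADTN from FDM was -0.18 ± 0.35 (adjusted p = 0.848).

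VIP, vasoactive intestinal peptide, is made by a class of retinal amacrine cells (ENSGALG00000013604, galGal5 chromosome 3, 49646763 to 49653486, plus strand). It had 35.1, 44.2, 48.9 and 65.9 CPM in TPMPA retinas, against 15.2, 15.8, 17.8 and 12.2 CPM in ADTN retinas. The groups did not overlap. The difference was 1.66 ± 0.23 (adjusted p = 3.07e-05). FDM retinas had 20.1, 19.2, 13.8 and 14.8 CPM, and untreated retinas had 31.7 ± 7.96 CPM (SD, n = 4). The ADTN levels lay within or just below those of FDM, whereas each TPMPA level lay above them. VIP differed from FDM by 1.52 ± 0.23 with TPMPA (adjusted p = 0.000126) and by -0.14 ± 0.24 with ADTN (adjusted p = 0.82). For UTS2B and VIP the difference between the drugs with the vessel score as a term was 2.20 and 1.41, with adjusted p of 5.29e-05 and 0.000509 by the same test.

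**Figure D1:**
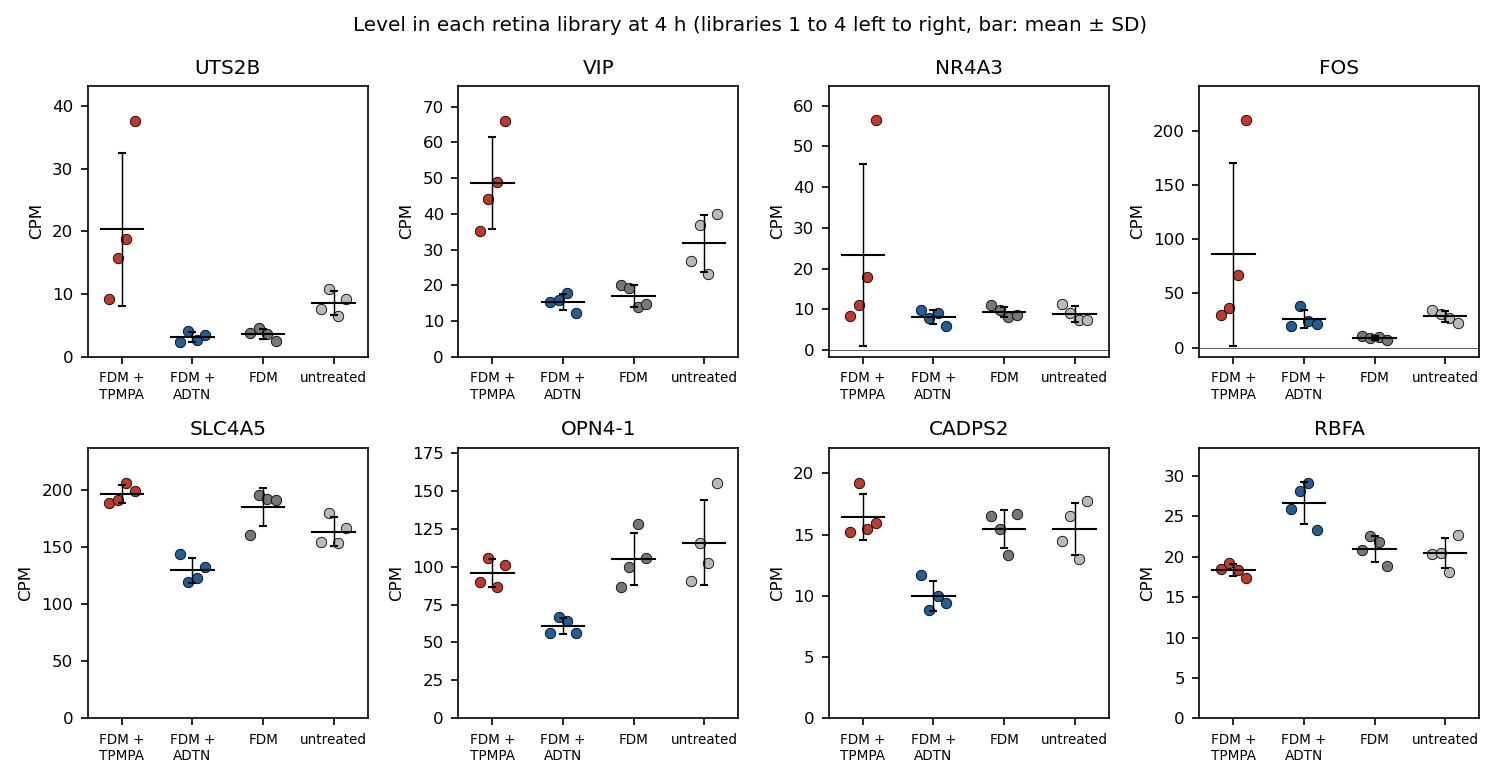
Level in CPM (y axis, linear) of 8 genes in each 4 h library of FDM + TPMPA, FDM + ADTN, FDM and untreated retinas (x axis), where each dot is a library, the bar is the mean and the whiskers are ± SD. UTS2B and VIP are higher in all TPMPA libraries than in any ADTN or FDM library, and their lowest TPMPA level lies near the untreated mean. NR4A3 and FOS are highest in TPMPA library 4, and SLC4A5, OPN4-1 and CADPS2 are low in the ADTN libraries.

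The list of retinal peptides and growth signals had 17 tested members of 22. Of these, 2 passed, both higher with TPMPA, where 0.108% of all genes were higher. This list and those below were chosen with earlier results of these data known. Counts of their members beside the share of all genes therefore describe the lists and test nothing. The list's median difference was 0.30, against 0.0027 over all genes, with 11 members positive and 6 negative. With the vessel score as a term the list median was 0.10, and UTS2B and VIP passed. PACAP, a peptide of the same family as VIP that raises cAMP, had 21.8, 27.9, 32.9 and 31.3 CPM in TPMPA retinas, against 18, 21.2, 18 and 16.4 CPM in ADTN retinas. Its groups did not overlap and its difference of 0.63 ± 0.14 missed the threshold (adjusted p = 0.0523). NPY, neuropeptide Y, had 11.6, 10.6, 12.1 and 9.30 CPM with TPMPA, against 5.81, 5.79, 6.05 and 9.20 CPM with ADTN, and its difference of 0.70 ± 0.27 had an adjusted p of 0.442. GCG, the glucagon precursor of amacrine cells tied to eye growth in chicks, had 54.3, 40.6, 40.1 and 45.4 CPM with TPMPA, against 31.9, 35.7, 29.9 and 37.2 CPM with ADTN. No TPMPA library of GCG was below an ADTN library, and the 95% interval of its difference ran from -0.05 to 0.89 (adjusted p = 0.684). BMP2, a growth factor of the TGF-beta family, had 10.4, 9.12, 4.88 and 17.0 CPM with TPMPA, against 6.47, 5.72, 5.50 and 4.10 CPM with ADTN, and these groups overlapped (difference 0.90 ± 0.58, adjusted p = 0.755). SST, somatostatin, differed by -0.20 with an interval from -1.18 to 0.78.

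Genes of the immediate early response, which neurons transcribe within minutes of calcium or cAMP signals, were higher with TPMPA for NR4A3, NR4A1 and FOS. These are 3 of the 33 tested members of that list, with 0 lower, where 0.108% of all genes were higher. With the vessel score as a term 0 members passed, and likewise 0 without TPMPA library 4 or without ADTN library 3. The list median was 0.16, with 22 members positive and 11 negative, and it was 0.09 without TPMPA library 4 and -0.03 within the 5 libraries high in small structural RNAs (TPMPA 1 and 2, ADTN 1 to 3). NR4A1, a nuclear receptor without a known ligand, had 14.2, 20.2, 25.6 and 42.8 CPM in TPMPA retinas, against 12.4, 12.6, 9.43 and 13.8 CPM in ADTN retinas. Its groups did not overlap, although TPMPA library 1 lay close to the highest ADTN library (difference 1.09 ± 0.23, adjusted p = 0.0237). Its entry lies on an unplaced scaffold. NR4A3, a relative of NR4A1, had 8.41, 11.0, 18 and 56.4 CPM with TPMPA, against 9.76, 7.80, 9.18 and 6.00 CPM with ADTN. The groups overlapped through TPMPA library 1 (difference 1.5 ± 0.29, adjusted p = 0.0193).

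FOS, a subunit of the AP-1 transcription factor (ENSGALG00000028037, galGal5 chromosome 5, 38264804 to 38267713, plus strand), had 30.4, 36.5, 67.0 and 209.6 CPM in TPMPA retinas, against 20.3, 38.2, 24.1 and 21.6 CPM in ADTN retinas. TPMPA library 4 was far above the rest, and ADTN library 2 lay above TPMPA libraries 1 and 2. The difference was 1.72 ± 0.36 (adjusted p = 0.025). Without TPMPA library 4 it was 0.78 for FOS (adjusted p = 0.473), 0.60 for NR4A3 (adjusted p = 0.414) and 0.74 for NR4A1 (adjusted p = 0.286). EGR1, a zinc finger factor whose retinal level is known to change with the direction of eye growth, had 62.2, 49.7, 89.5 and 415 CPM with TPMPA, against 29.7, 47.8, 49.4 and 61.0 CPM with ADTN. TPMPA library 4 again stood apart, and the difference of 1.71 ± 0.42 did not pass (adjusted p = 0.0999). For EGR1 the difference was 0.52 without TPMPA library 4 (adjusted p = 0.801), and it passed without TPMPA library 1 (1.98, adjusted p = 0.021) or TPMPA library 2 (2.01, adjusted p = 0.0262). BDNF, a neurotrophin induced by activity, had 6.51, 5.91, 8.46 and 8.55 CPM with TPMPA, against 4.39, 4.83, 3.03 and 4.64 CPM with ADTN. The groups of BDNF did not overlap (difference 0.80 ± 0.20, adjusted p = 0.101).

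Both drug groups lay above FDM in FOS. FDM retinas had 11.0, 8.66, 9.32 and 6.80 CPM, below every library of both drugs. The difference from FDM was 3.25 ± 0.40 with TPMPA (adjusted p = 4.92e-06) and 1.53 ± 0.39 with ADTN (adjusted p = 0.0414). For NR4A1 it was 1.77 ± 0.24 with TPMPA (adjusted p = 1.82e-05) and 0.68 ± 0.24 with ADTN (adjusted p = 0.161). For NR4A3 it was 1.30 ± 0.29 with TPMPA (adjusted p = 0.0212) and -0.20 ± 0.29 with ADTN (adjusted p = 0.794). These comparisons share the FDM libraries, and the injection is part of each.

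DUSP4, a nuclear phosphatase that switches off ERK, passed alone among 18 tested members of the ERK and MAP kinase feedback list. It was higher with TPMPA, where 0.108% of all genes were higher, and 0 members passed with the vessel score as a term. The list median was 0.13, and it was 0.08 without TPMPA library 1 and 0.03 without ADTN library 4. DUSP4 had 6.88, 15.3, 19.5 and 13.9 CPM in TPMPA retinas, against 5.92, 7.80, 5.70 and 6.31 CPM in ADTN retinas. TPMPA library 1 lay within the ADTN range and the other TPMPA libraries above it (difference 1.12 ± 0.23, adjusted p = 0.0193). DUSP6, the cytoplasmic ERK phosphatase, had 95.9, 88.4, 80.8 and 93.9 CPM with TPMPA, against 83.0, 101, 87.1 and 74.4 CPM with ADTN. The DUSP6 groups overlapped and the 95% interval of the difference ran from -0.17 to 0.28, while FDM retinas had 60.7, 50.7, 48.5 and 51.4 CPM. DUSP6 was higher than in FDM by 0.76 ± 0.11 with TPMPA (adjusted p = 6.4e-05) and by 0.71 ± 0.11 with ADTN (adjusted p = 0.000355). Each drug group thus stood above FDM in DUSP6, and between the drugs only DUSP4 of this pair passed.

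Several genes were lower with ADTN than in FDM and near the FDM level with TPMPA. ADTN and FDM libraries also differed in composition. The vessel score averaged 3.85 in ADTN and 2.34 in FDM libraries at 4 h. Of the ADTN libraries 3 of 4 were high in small structural RNAs, and of the FDM libraries 1 of 4. The comparisons with FDM were not refitted with these levels as terms or without single libraries. SLC4A5, a sodium bicarbonate cotransporter (ENSGALG00000032146, galGal5 chromosome 22, 2895458 to 2913802, minus strand), had 188, 192, 206 and 200 CPM in TPMPA retinas, against 144, 120, 123 and 133 CPM in ADTN retinas. The groups were well apart and the spread within each was small. The difference was 0.60 ± 0.08 (adjusted p = 2.11e-05). FDM retinas had 161, 196, 192 and 192 CPM. SLC4A5 differed from FDM by 0.09 ± 0.08 with TPMPA (adjusted p = 0.659) and by -0.51 ± 0.08 with ADTN (adjusted p = 0.000348).

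OPN4-1, a melanopsin and thus a light sensor outside rods and cones (ENSGALG00000041662, galGal5 chromosome 4, 37518259 to 37532248, plus strand), had 89.9, 106, 86.5 and 101 CPM in TPMPA retinas, against 56.1, 66.8, 64.4 and 56.1 CPM in ADTN retinas. No libraries overlapped (difference 0.65 ± 0.14, adjusted p = 0.0193). FDM retinas had 86.7, 99.6, 128 and 105 CPM. OPN4-1 differed from FDM by -0.13 ± 0.14 with TPMPA (adjusted p = 0.685) and by -0.79 ± 0.14 with ADTN (adjusted p = 0.00141). It was the 1 member of 9 tested melanopsins and non-visual opsins to pass, where 0.108% of all genes were higher. With the vessel score as a term OPN4-1 missed the threshold (0.54, adjusted p = 0.126). OPN4, another melanopsin gene, had 116, 143, 129 and 167 CPM with TPMPA, against 75.5, 102, 120 and 140 CPM with ADTN, which overlap (difference 0.34 ± 0.16, adjusted p = 0.591).

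CADPS2, a protein that primes dense-core vesicles for release, had 15.2, 19.2, 15.5 and 15.9 CPM in TPMPA retinas, against 11.7, 8.84, 9.99 and 9.42 CPM in ADTN retinas. The groups did not overlap (difference 0.72 ± 0.14, adjusted p = 0.0193). CADPS2 differed from FDM by 0.09 ± 0.14 with TPMPA and by -0.63 ± 0.14 with ADTN (adjusted p = 0.813 and 0.0232 by the quasi-likelihood test). KCNMA1, the pore of the large-conductance potassium channel opened by calcium, had 211, 248, 244 and 275 CPM with TPMPA, against 185, 182, 181 and 185 CPM with ADTN. The ADTN values of KCNMA1 were almost equal to each other and lay below all TPMPA values (difference 0.42 ± 0.08, adjusted p = 0.0193). A second entry of the same gene identifier, spelled kcnma1, passed too (0.39 ± 0.08), so the 18 entries are 17 genes. Whether both entries share reads was not examined. KCNMA1 differed from FDM by 0.05 ± 0.08 with TPMPA and by -0.37 ± 0.08 with ADTN (adjusted p = 0.836 and 0.0232). It was the 1 of 42 tested potassium channel genes to pass, where 0.108% of all genes were higher. With the vessel score as a term 0 of these channel genes passed. The list median was 0.11, with 31 members positive and 11 negative, and 0.07 without TPMPA library 4. That median was 0.0067 within the libraries high in small structural RNAs and 0.21 within those low in them, a split made after seeing the data. KCNJ2, an inward rectifier, had 59.3, 64.9, 62.9 and 60.1 CPM with TPMPA, against 51.6, 48.9, 51.2 and 45.2 CPM with ADTN, without overlap (difference 0.33 ± 0.09, adjusted p = 0.133).

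DRD5, a dopamine receptor of the class that raises cAMP, had 36.6, 42.8, 42.7 and 39.0 CPM in TPMPA retinas, against 32.4, 26.8, 29.7 and 25.2 CPM in ADTN retinas. The groups did not overlap (difference 0.50 ± 0.10, adjusted p = 0.0193), and against FDM neither drug passed for DRD5 (0.31 ± 0.10 with TPMPA, -0.19 ± 0.10 with ADTN). NUAK1, a kinase related to AMP-activated kinase, had 56.2, 52.7, 59.4 and 69.0 CPM with TPMPA, against 39.8, 45.3, 37.0 and 46.4 CPM with ADTN (difference 0.49 ± 0.10, adjusted p = 0.0193). PRRG3, a membrane protein with a Gla domain, had 11.7, 16.5, 20.9 and 20.7 CPM with TPMPA, against 12.2, 9.28, 9.13 and 10.9 CPM with ADTN. TPMPA library 1 lay below ADTN library 1 for PRRG3 (difference 0.75 ± 0.15, adjusted p = 0.0193), and its entry overlaps that of a miRNA on the same strand. KLHL17, an actin-binding adaptor of neurons, had 15.1, 15.8, 19.1 and 12.5 CPM with TPMPA, against 9.27, 9.28, 11.3 and 10.7 CPM with ADTN (difference 0.63 ± 0.14, adjusted p = 0.0491). The KLHL17 entry overlaps NOC2L on the opposite strand, and no source used here states whether counting used strand.

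RBFA, a ribosome-binding factor that acts on the mitochondrial small subunit, was the 1 gene lower with TPMPA. It had 18.5, 19.2, 18.4 and 17.4 CPM in TPMPA retinas, against 25.9, 28.1, 29.2 and 23.3 CPM in ADTN retinas. The groups did not overlap (difference -0.53 ± 0.11, adjusted p = 0.0237). FDM retinas of RBFA had 20.8, 22.6, 21.8 and 18.8 CPM, between the drugs in the mean, and neither drug passed against FDM. Its entry overlaps ENSGALG00000034659 on the same strand. The genes ENSGALG00000010288 and ENSGALG00000041988, which have no symbol in the table, also passed. ENSGALG00000010288 had 7.19, 7.05, 6.82 and 5.11 CPM with TPMPA, against 2.52, 3.19, 3.53 and 2.81 CPM with ADTN, with no overlap (difference 1.12 ± 0.22, adjusted p = 0.0193). ENSGALG00000041988 had 120, 110, 110 and 295 CPM with TPMPA, against 78.0, 77.3, 97.1 and 86.6 CPM with ADTN, again highest in TPMPA library 4 (difference 0.90 ± 0.20, adjusted p = 0.0338, and 0.41 without that library).

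The calls of the other 15 entries depended on single libraries, while every direction stayed. The number of the 18 that missed the threshold was 0 without TPMPA library 1, 9 without library 2, 6 without library 3 and 11 without library 4. It was 11 without ADTN library 1, 11 without library 2, 15 without library 3 and 5 without library 4. Left out 1 library at a time, UTS2B stayed between 2.20 and 2.92 (highest adjusted p = 0.000247), VIP between 1.48 and 1.79 (0.000999) and SLC4A5 between 0.56 and 0.65 (0.000471). CADPS2 stayed between 0.63 and 0.80, with a highest adjusted p of 0.0847, OPN4-1 between 0.60 and 0.71 (0.0974), KCNMA1 between 0.36 and 0.48 (0.0984), DRD5 between 0.44 and 0.56 (0.101), NUAK1 between 0.42 and 0.55 (0.156) and RBFA between -0.59 and -0.49 (0.168). PRRG3 stayed between 0.65 and 0.90 (0.126), KLHL17 between 0.52 and 0.72 (0.307), DUSP4 between 0.91 and 1.34 (0.231) and ENSGALG00000010288 between 1.04 and 1.22 (0.0835). The widest ranges were those of FOS, 0.78 to 2.00, and NR4A3, 0.60 to 1.79, both lowest without TPMPA library 4.

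Of the 18 entries, 8 were higher with TPMPA than in FDM and 0 lower, where 0.413% of all genes were higher, 0.0572% lower and 0.47% either. With ADTN, 5 were lower than in FDM and 1 higher, where 0.337% of all genes were lower, 0.419% higher and 0.756% either. Neither drug passed against FDM for 5 entries. Since the 18 were selected by the difference between the drugs, these counts describe them and test nothing.

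**Figure D2:**
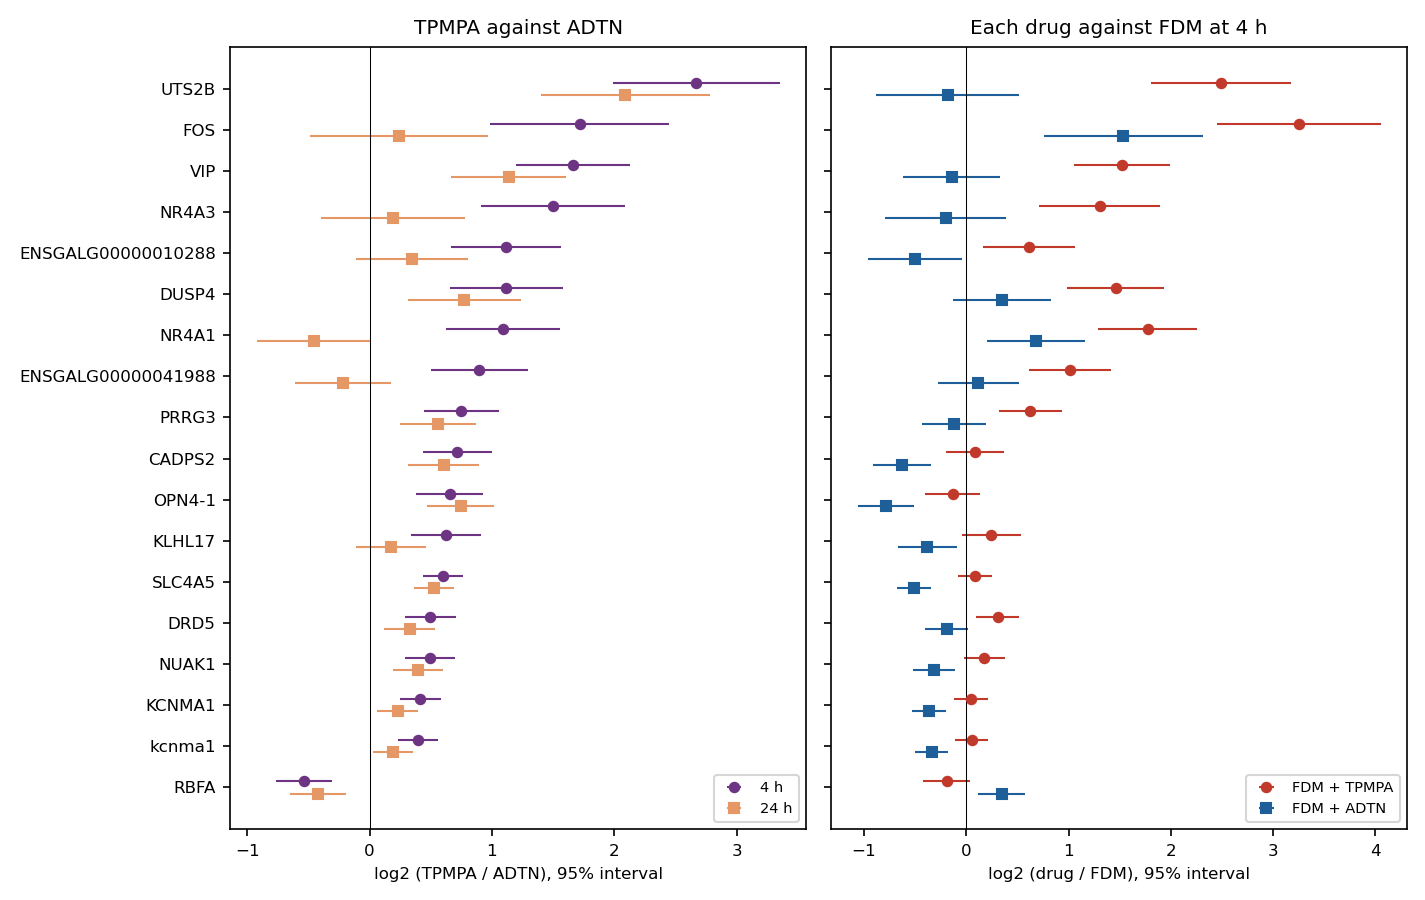
Log2 differences with 95% intervals (x axis) for the 18 entries that differed between the drugs at 4 h (rows): left, TPMPA over ADTN at 4 h and at 24 h, right, each drug over FDM at 4 h. UTS2B, VIP and the immediate early genes lie to the right of 0 with TPMPA against FDM, whereas SLC4A5, OPN4-1, CADPS2 and KCNMA1 lie to the left of 0 with ADTN against FDM.

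The targets of both drugs were examined next. Among 16 tested GABA receptor subunits 0 passed in either direction, where 0.114% of all genes passed. Of these subunits, 15 had a positive difference, against 50.8% of all genes. At an unadjusted p under 0.05, 4 were higher, against 4.83% of all genes, and the list median was 0.17. That median was 0.11 without TPMPA library 4 and 0.10 with the vessel score as a term. GABRR1, a rho subunit of the GABA-C receptor, had 38.8, 38.8, 44.5 and 56.3 CPM with TPMPA, against 35.6, 32.2, 37.8 and 37.6 CPM with ADTN. No GABRR1 libraries overlapped, and the difference was 0.31 ± 0.11 (adjusted p = 0.364). GABRR2, the neighbouring rho subunit gene, differed by 0.00 ± 0.12 (interval -0.24 to 0.25), and GABRR3 by 0.16 ± 0.12 (interval -0.09 to 0.40). GABRB4, a beta subunit found in birds, had 48.7, 57.6, 59.2 and 54.6 CPM with TPMPA, against 43.9, 44.1, 36.6 and 29.3 CPM with ADTN, without overlap (difference 0.52 ± 0.20, adjusted p = 0.444).

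On the dopamine side, DRD5 was the 1 of 17 tested genes of dopamine synthesis and reception to pass. Over all genes 0.108% were higher. The list's median was 0.02 (-0.01 to 0.08 with single libraries left out). With the vessel score as a term 0 of the 17 passed. DRD1, of the same receptor class, had 85.7, 97.8, 115 and 107 CPM with TPMPA, against 94.1, 81.0, 99.4 and 79.9 CPM with ADTN, with overlap (difference 0.19 ± 0.08, adjusted p = 0.525). DRD2, a receptor that lowers cAMP and acts on dopamine cells themselves, differed by 0.40 ± 0.19 (interval 0.03 to 0.78, adjusted p = 0.564). DRD4, a receptor of photoreceptors, had 220, 247, 244 and 297 CPM with TPMPA, against 248, 253, 216 and 292 CPM with ADTN. The DRD4 groups overlapped and the interval of the difference was -0.22 to 0.22. The transcript for tyrosine hydroxylase, which makes the dopamine precursor, had 2.89, 3.06, 4.92 and 6.20 CPM with TPMPA, against 3.78, 1.49, 3.68 and 3.42 CPM with ADTN, with overlap (adjusted p = 0.77).

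Clock and melatonin genes gave no call between the drugs. All 22 tested clock genes missed the threshold, where 0.114% of all genes passed. Their median was 0.0047 (-0.03 to 0.03 with single libraries left out). PER2, a repressor of the clock that responds to light, had 400, 335, 399 and 489 CPM with TPMPA, against 325, 322, 320 and 409 CPM with ADTN (difference 0.24 ± 0.15, adjusted p = 0.741). PER3 had 133, 89.0, 77.0 and 113 CPM with TPMPA, against 50, 48.3, 50.7 and 98.9 CPM with ADTN, with overlap through ADTN library 4 (difference 0.73 ± 0.35, adjusted p = 0.599). PER2 differed from FDM by -0.39 with TPMPA (adjusted p = 0.206) and by -0.63 with ADTN (adjusted p = 0.0277). For PER3 these differences were -0.86 (adjusted p = 0.245) and -1.59 (adjusted p = 0.023) by the same test. Of the 22 clock genes, 2 were lower with ADTN than in FDM and 0 higher, where 0.337% of all genes were lower. With TPMPA, 1 was lower than in FDM and 0 higher, where 0.0572% were lower. MTNR1A, a melatonin receptor, had 4.18, 5.13, 4.10 and 10.1 CPM with TPMPA, against 0.878, 3.79, 2.27 and 2.28 CPM with ADTN. The MTNR1A groups did not overlap, and the difference of 1.35 ± 0.31 had an adjusted p of 0.0585. TPH1, which makes the serotonin precursor, had 38.9, 52.4, 39.4 and 33.4 CPM with TPMPA, against 64.0, 54.0, 66.9 and 39.7 CPM with ADTN, with overlap. TPH1 differed from FDM by 0.98 ± 0.28 with TPMPA (adjusted p = 0.0938) and by 1.44 ± 0.28 with ADTN (adjusted p = 0.00824), and between the drugs the adjusted p was 0.725.

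Genes of lipid synthesis had mostly positive differences without a call. Of 21 tested genes for cholesterol and fatty acid synthesis 0 passed, where 0.114% of all genes passed. Of these 21 genes, 20 had a positive difference, against 50.8% of all genes. At an unadjusted p under 0.05, 7 were higher and 1 lower, against 4.83% and 3.21% of all genes. The list median was 0.24. SCD, which desaturates fatty acids, had 35.9, 42.0, 39.5 and 34.2 CPM with TPMPA, against 27.1, 22.9, 20.7 and 24.7 CPM with ADTN. LSS, which closes the sterol rings, had 52.0, 61.5, 61.9 and 38.5 CPM with TPMPA, against 37.5, 37.5, 36.7 and 33.1 CPM with ADTN. Neither gene had overlapping groups, and their adjusted p-values were 0.101 for SCD and 0.162 for LSS. As a contrast, 42 tested genes of oxidative phosphorylation had a median of 0.01 (-0.02 to 0.05 with single libraries left out), with 23 positive and 19 negative. The median of 30 phototransduction genes was 0.02 (-0.07 to 0.07).

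**Figure D3:**
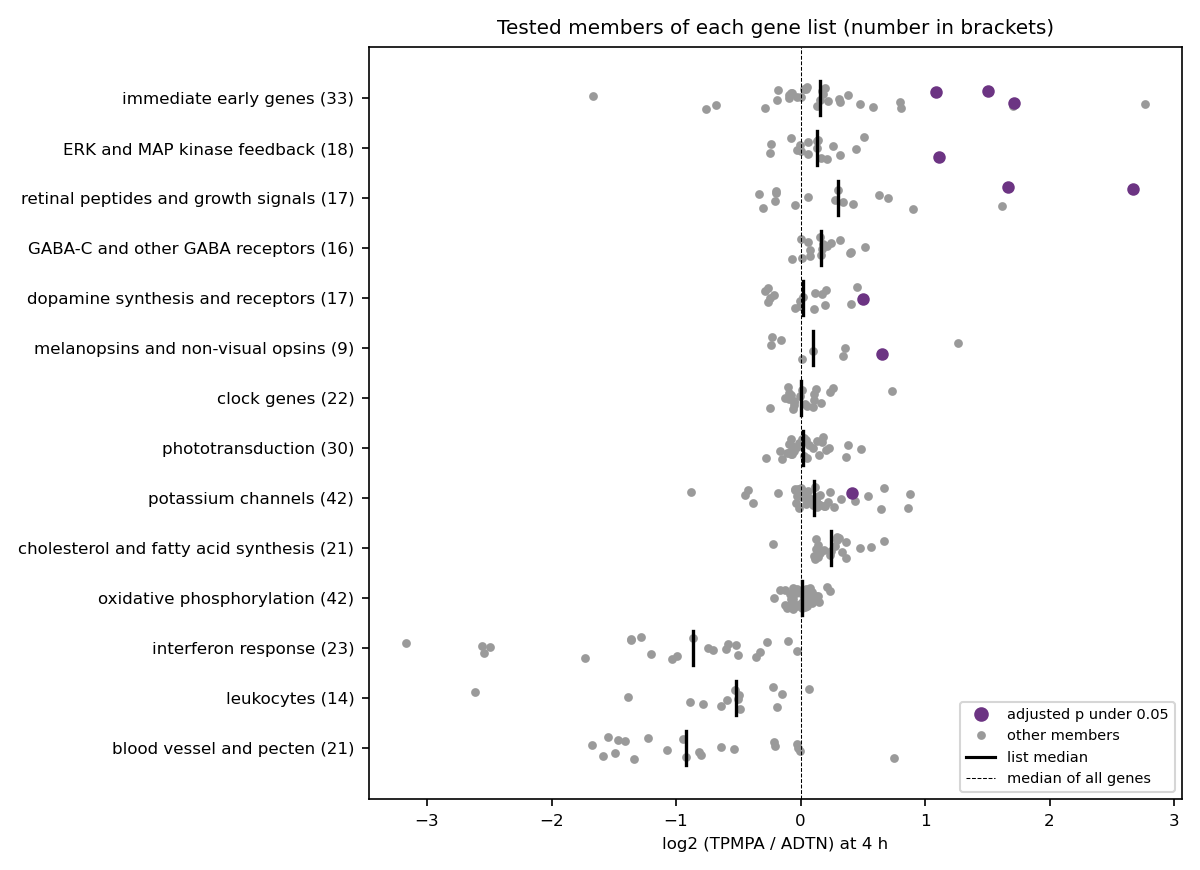
Log2 difference of TPMPA over ADTN at 4 h (x axis) for every tested member of 14 gene lists (rows, number tested in brackets), with black bars for list medians and purple dots for members past the threshold. The interferon, leukocyte and vessel lists lie mostly to the left of 0 with no member past the threshold, and the cholesterol list lies mostly to the right.

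Genes induced by interferon had negative differences throughout, without any member passing in the fit of all libraries, where 0.114% of all genes passed. All 23 tested members of 32 had a negative difference, while 50.8% of all genes had a positive one. At an unadjusted p under 0.05, 12 members were lower, against 3.21% of all genes, and the list median was -0.87. OASL, an antiviral protein of the oligoadenylate synthetase family, had 11.2, 1.81, 0.907 and 2.1 CPM in TPMPA retinas, against 34.3, 33.8, 20.2 and 5.62 CPM in ADTN retinas. TPMPA library 1 was the highest of its group, ADTN library 4 the lowest of its group, and these cross (difference -2.56 ± 0.90, adjusted p = 0.377). DTX3L, a ubiquitin ligase of the interferon response, had 11.0, 5.34, 5.48 and 6.54 CPM with TPMPA, against 14, 20.1, 13.2 and 9.12 CPM with ADTN, with the same crossing libraries (difference -0.99 ± 0.30, adjusted p = 0.234). Without TPMPA library 1 DTX3L passed (-1.29, adjusted p = 0.0485). The summed level of the list was 465, 267, 279 and 286 CPM in TPMPA libraries 1 to 4, against 571, 605, 510 and 299 CPM in ADTN libraries 1 to 4.

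TPMPA library 1 and ADTN libraries 1 to 3 had the highest vessel scores and the highest interferon sums among the TPMPA, ADTN and FDM libraries at 4 h. Within this set the order differed. TPMPA library 1 had the highest score (4.44) with 465 CPM, and ADTN library 2 the lowest (3.75) with 605 CPM. No association was computed. Of 21 tested genes of vessels and of the pecten, a vascular fold of the bird eye, 0 passed, where 0.114% of all genes passed. Of these 21 genes, 20 were negative and the median was -0.92. That median was -3.56 without TPMPA library 1, where 1 gene passed, -0.51 without TPMPA library 3 and -0.54 without TPMPA library 4. It was -2.39 with limma voom and -0.07 with the vessel score as a term. The score is itself a mean over vessel genes, so that last value was largely fixed in advance and tests nothing. Of 14 tested leukocyte genes 0 passed, 13 were negative and the median was -0.52 (-0.83 without TPMPA library 1, -0.29 without TPMPA library 3, -0.05 with the vessel score). Of 32 tested extracellular matrix genes 26 were negative. Leukocyte genes summed to 189, 106, 73.2 and 105 CPM in TPMPA libraries, against 190, 174, 172 and 138 CPM in ADTN libraries. Pigment cell genes summed to 1167 to 2387 CPM with TPMPA, against 1566 to 2351 CPM with ADTN. With the vessel score as a term the interferon median was -0.39. It was -1.25 without TPMPA library 1, -0.50 without ADTN library 2 and -0.05 within the 3 libraries low in small structural RNAs (TPMPA 3 and 4, ADTN 4), a split made after seeing the data. The part of these cells in the interferon values was not tested.

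**Figure D4:**
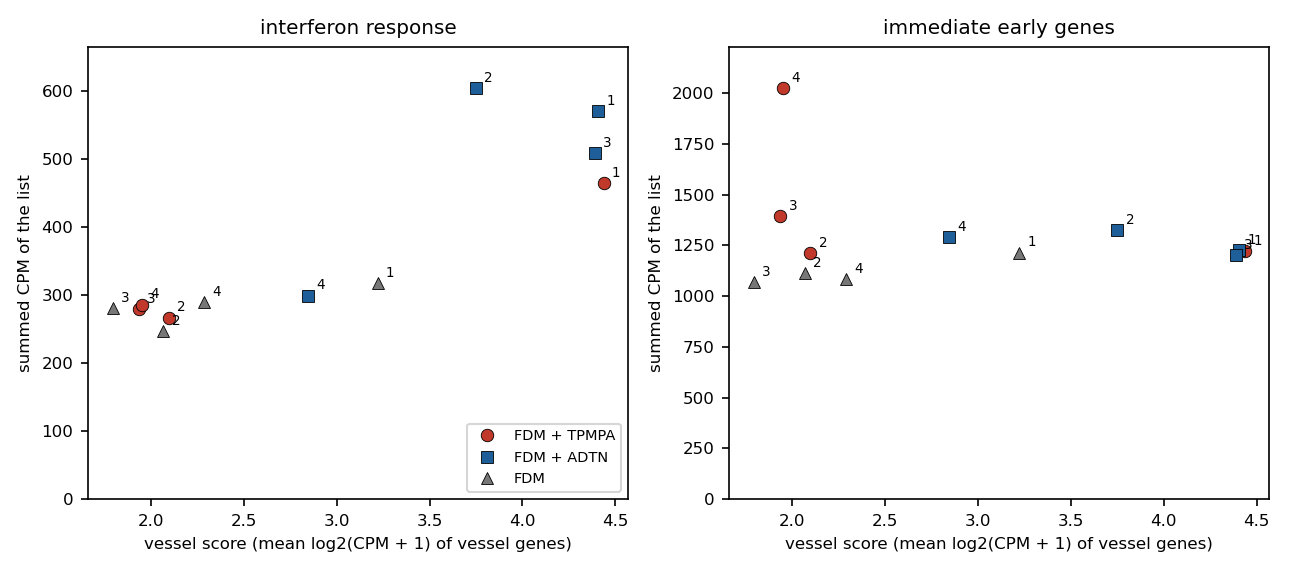
Summed CPM of the interferon list (left) and the immediate early gene list (right) on the y axes against the vessel score (x axis, mean log2(CPM + 1) of 9 vessel genes) in the 12 libraries of FDM + TPMPA, FDM + ADTN and FDM at 4 h, numbered by replicate. Among these 12, the 4 with the highest vessel scores, TPMPA 1 and ADTN 1 to 3, have the highest interferon sums, and TPMPA library 4 has the highest immediate early sum, 2025 CPM.

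Among 24 tested Mueller glia genes, 0 passed between the drugs, 4 were higher with TPMPA than in FDM and 1 higher with ADTN than in FDM. Among 27 tested genes of cytokine and NF-kB signalling, 0 passed between the drugs, 2 were higher with TPMPA than in FDM and 6 higher with ADTN than in FDM. Of all genes, 0.114% passed between the drugs, 0.413% were higher with TPMPA than in FDM and 0.419% higher with ADTN than in FDM. STAT3, a transcription factor activated by cytokine receptors, had 351, 339, 348 and 301 CPM with TPMPA, against 378, 450, 341 and 254 CPM with ADTN. The STAT3 groups overlapped, with an interval of the difference from -0.45 to 0.28, and FDM retinas had 207, 191, 191 and 193 CPM. STAT3 was higher than in FDM by 0.77 ± 0.18 with TPMPA (adjusted p = 0.0332) and by 0.86 ± 0.18 with ADTN (adjusted p = 0.0165). GFAP, the filament protein of reactive Mueller glia, had 35.7, 40.3, 42.1 and 30.2 CPM with TPMPA, against 55.2, 58.3, 28.6 and 19.2 CPM with ADTN, and FDM retinas had 6.86, 10.5, 16.2 and 11.8 CPM. GFAP was higher than in FDM by 1.70 ± 0.41 with TPMPA and by 1.82 ± 0.41 with ADTN (adjusted p = 0.0425 and 0.024), and the interval between the drugs ran from -0.90 to 0.66. SOCS3, the feedback inhibitor of STAT3, had 11.5, 6.27, 22.5 and 3.52 CPM with TPMPA, against 8.34, 28.1, 8.78 and 3.95 CPM with ADTN, and FDM retinas had 1.48 CPM or less. SOCS3 differed from FDM by 3.75 ± 0.95 with TPMPA (adjusted p = 0.0521) and by 3.90 ± 0.95 with ADTN (adjusted p = 0.0328). No group of the series is labelled as injected without a drug. Drug and injection therefore cannot be told apart in the comparisons with FDM, while the comparison between the drugs holds the injection in common.

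At 24 h a separate set of libraries gave a second comparison of the drugs, in which 30 of 15746 genes passed (0.191%), 17 higher (0.108%) and 13 lower (0.0826%). The vessel score averaged 2.09 with TPMPA and 3.02 with ADTN at 24 h. Of the TPMPA libraries 0 of 4 were high in small structural RNAs, and of the ADTN libraries 3 of 4. The 24 h comparison was not refitted with these levels as terms or without single libraries. Among the 18 entries of 4 h, 4 passed at 24 h: UTS2B, VIP, SLC4A5 and OPN4-1. UTS2B averaged 11.4 ± 2.80 CPM with TPMPA and 2.71 ± 0.83 CPM with ADTN at 24 h (SD, n = 4 each), a difference of 2.09 ± 0.34 (adjusted p = 0.00142). VIP averaged 34.3 ± 7.60 CPM with TPMPA and 15.7 ± 3.10 CPM with ADTN (difference 1.14 ± 0.23, adjusted p = 0.0192). SLC4A5 averaged 193.8 ± 15.9 CPM with TPMPA and 134.7 ± 11.1 CPM with ADTN (0.53 ± 0.08, adjusted p = 0.000972). OPN4-1 averaged 91.1 ± 17.8 CPM with TPMPA and 54.4 ± 3.00 CPM with ADTN (0.75 ± 0.14, adjusted p = 0.00628).

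Among the 17 higher entries, 15 had a positive difference at 24 h and 2 a negative one, NR4A1 and ENSGALG00000041988. Over all genes 47.0% had a positive difference at 24 h. The 15 include both entries of KCNMA1, which have the same gene identifier. FOS averaged 32.5 ± 4.40 CPM with TPMPA and 27.5 ± 5.28 CPM with ADTN at 24 h (difference 0.24 ± 0.36, adjusted p = 0.845). NR4A1 averaged 14.1 ± 0.83 CPM with TPMPA and 19.3 ± 0.93 CPM with ADTN (difference -0.46 ± 0.23, adjusted p = 0.445). MTNR1A, which missed the threshold at 4 h, averaged 7.10 ± 1.1 CPM with TPMPA and 2.22 ± 0.80 CPM with ADTN at 24 h and passed (1.69 ± 0.32, adjusted p = 0.00752), and so did KCNJ2 (0.42 ± 0.09, adjusted p = 0.02). The change of the difference between 24 h and 4 h was tested for all genes with edgeR's quasi-likelihood test, and 0 genes passed (735 at an unadjusted p under 0.05, 4.67%, and 0 with limma voom). For NR4A1 that change was -1.55 ± 0.33 (adjusted p = 0.251), and for UTS2B it was -0.58 ± 0.47 (adjusted p = 1).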

How the data were processed

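Whole-retina RNA was measured in 54 libraries in 14 groups. Per the labels' protocols, total RNA was extracted with Trizol (RNA integrity number above 7.0), made into stranded libraries and read in pairs on a NextSeq 500. The submitters' processing notes name the build galGal5 and, as tools, HISAT2 2.1, Trimmomatic 0.36, limma, edgeR and HOMER; no source used here gives their role or order. The authors deposited raw counts per transcript, in 38118 entries under 24881 gene identifiers. The deposited coordinates and lengths were used only to place genes.

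For each gene name the transcript with the largest summed count was kept (24599), and filterByExpr (minimum count 10, minimum total 15) left 15746 genes. Transcripts of a gene can share reads. The robust quasi-likelihood test of edgeR 4.0.16 (R 4.3.3) was run on TMM-scaled counts, with 1 mean per group over all 54 libraries and the contrast TPMPA minus ADTN at 4 h. P-values are two-sided and were adjusted by Benjamini-Hochberg over the 15746 genes, with a threshold of 0.05. The SE is the log2 difference divided by the square root of F, and intervals are 95% intervals from the same fit. DESeq2 1.42.0 and limma 3.58.1 (voom) were alternatives. The steps were tested on simulated counts.

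Named genes are the 15 largest rises and the 1 fall among called genes that have a symbol and average 2 CPM or more over the 8 libraries, up to 5 members of each of 34 gene lists with the smallest p, and a fixed set followed whatever its result; the text gives a part of them, and 1 gene is not reported here. The genes without a symbol, B2M, IFITM5 and CDH5 were chosen after their values were seen. Members and lists were chosen with earlier results of these data known. Of the 816 list entries, 700 were in the table. Promoter motifs were planned and not analysed here. Total counts of 12.4 to 22.4 M per library set the counting error; intervals cover the spread between libraries.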

Additional observations from a re-analysis of the deposited data

Results flagged for a closer look

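In 18 of 158 groups of 4 libraries checked, a single library stood far from the others of its group by the 95% critical value of Dixon's gap test. Chance flags about 1 in 20 of independent groups. The groups checked were not independent. They include called genes, genes chosen after their values were seen, and both CDH5 and the vessel score that contains it. The share flagged was therefore not tested against that rate. In TPMPA library 1 the vessel score was 4.44 and CDH5, an endothelial cadherin, had 46.2 CPM. The same library was high in OASL at 11.2 CPM and in TAP1, a peptide transporter, at 5.71 CPM. It was also high in B2M, the light chain of MHC class I, at 85.0 CPM. Its DRD2 level of 6.14 CPM was flagged as low, although the nearest other library of the group was close, at 6.45 CPM. TPMPA library 4 was high in EGR1 at 415 CPM, in ENSGALG00000041988 at 295 CPM and in MTNR1A at 10.1 CPM. TPMPA library 2 was high in ETV5, a transcription factor downstream of ERK, at 152 CPM.

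ADTN library 4 was high in PER2 at 409 CPM, in PER3 at 98.9 CPM, in NPY at 9.20 CPM and in CNGA3, the cone channel subunit, at 124 CPM. It was low in ETV5 at 86.3 CPM, in CREB3L1 at 1.82 CPM and in B2M at 39.7 CPM. ADTN library 2 was low in the tyrosine hydroxylase transcript, at 1.49 CPM. ADTN library 4 also had the lowest vessel score and small RNA level of its group. The part of vessel cells or of small RNAs in these values was not tested.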

How the results depend on the processing

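Each of the 18 entries kept its direction in all 26 alternatives, and none kept its call in every one. The counts of higher and lower genes were 17 and 1. They were 44 and 9 with DESeq2, 25 and 5 with limma voom, 16 and 2 with a stricter filter, 1 and 0 in a fit of the 8 libraries alone, and 6 and 1 in a fit of the 4 h libraries. They were 30 and 4 with the small RNA level as a term, 5 and 1 with the vessel score, and 18 and 3 with the total count. Leaving out single libraries gave 3 to 56 higher and 0 to 34 lower genes. The extremes came without ADTN replicate 3 (3 and 0) and without TPMPA replicate 1 (56 and 34); without ADTN replicate 1 they were 7 and 0, without ADTN replicate 2 they were 8 and 1, without TPMPA replicate 4 they were 9 and 1 and without TPMPA replicate 2 they were 10 and 2. Chosen after seeing the data, fits within libraries high in small RNAs (2 TPMPA, 3 ADTN) gave 4 and 2, fits within those low in them (2 TPMPA, 1 ADTN, whose lone library is assumed to vary like the other groups) gave 8 and 0, and a fit without TPMPA libraries 1 and 4 gave 28 and 8. The causes were not tested, nor was the part of the fewer degrees of freedom that fewer libraries leave.

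The replicate numbers do not mark a pairing in the labels, and same-numbered libraries correlated by 0.22, 0.03, -0.03 and 0.33 in their deviations from the group means. With a replicate block the counts were 16 and 2, and with the block in the fit of the 8 libraries 4 and 0.

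Some genes that missed the threshold passed in other settings. PACAP, MTNR1A, EGR1, BDNF and SCD passed with DESeq2, and PACAP, BDNF and SCD with limma voom. PACAP and MTNR1A passed with the small RNA level as a term, and MTNR1A also with the total count. KCNJ2 and GABRB4 passed with the small RNA split as a term. PACAP, MTNR1A, BDNF, EGR1 and DTX3L passed without TPMPA library 1. Signs turned for genes past the threshold in neither setting. Within libraries low in small RNAs the difference was -0.019 for DRD2, -0.13 for GABRR2, -0.038 for GABRR3, -0.068 for PER3, 0.92 for GFAP, 0.40 for IFITM5, 1.75 for SOCS3, 1.24 for SST, 0.35 for STAT3 and 0.63 for TAP1. Within libraries high in them it was -0.00015 for DRD1, -0.037 for FOSL2 and -0.023 for tyrosine hydroxylase. GABRR2, at 0.0021, was -0.0056 with DESeq2 size factors, -0.0049 without a filter, -0.011 with the stricter filter, -0.0063 with DESeq2, -0.0021 with voom, -0.0080 in the 8 libraries, -0.00032 in the 4 h libraries, -0.071 with the vessel score, -0.0026 with the total count, -0.00098 below the largest gap in small RNA level, -0.0083 with the replicate block in the 8 libraries and -0.015 with the small RNA split as a term. DRD4 was 0.015 with the small RNA level, 0.027 with the total count and 0.0011 with the replicate block. SOCS3 was 0.040 with voom, 0.026 with the vessel score and 0.044 with the replicate block, and GFAP 0.028 with voom. Without TPMPA libraries 1 and 4 the difference was -0.035 for DUSP6, 0.026 for GFAP, 0.13 for IFITM5 and 0.23 for SOCS3. Leaving out single libraries gave -0.088 to 0.078 for DRD4, -0.0079 to 0.14 for DUSP6, -0.063 to 0.077 for GABRR2, -0.35 to 0.11 for GFAP, -0.16 to 0.081 for IFITM5, -0.77 to 0.65 for SOCS3, -0.43 to 0.093 for SST and -0.22 to 0.046 for STAT3.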
